A study of Bos taurus with 90 samples.

Results

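Mural granulosa cells (MGCs) of 10 large bovine follicles were compared, 4 from follicles that the study called healthy and 6 from the other large follicles. These are 10 of the 30 MGC libraries and of the 90 libraries of the series, which holds 1 MGC library, 1 cumulus cell (CC) library and 1 oocyte library from each of 30 antral follicles. The libraries were chosen by their follicle identifiers. All 10 follicles came from ovaries of slaughtered Bos taurus cows and had passed a visual screen for atresia before sequencing. No treatment of the cows or of these follicles is described. They are named here L1 to L10 in the order of their diameter. The healthy follicles were L5 with a diameter of 10.2 mm, L8 with 11.3 mm, L9 with 11.5 mm and L10 with 11.6 mm. The other follicles were L1 with 9.6 mm, L2 and L3 with 10.0 mm each, L4 with 10.2 mm, and L6 and L7 with 11.2 mm each. The 10 follicles came from at least 5 animals, and which animal gave which follicle is not given, so p-values measure the spread between follicles, some of which may share an animal.

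The healthy follicles had been picked by the study from the expression of these same MGC libraries, with a high level of the FSH receptor gene among the signs of health. A test between the groups in MGCs is therefore not independent of how the groups were made, and its calls are given as a description of how far apart the 2 sets of libraries lie. The diameter of the follicles and the CC and oocyte libraries of the same follicles were not used for that choice. The labels themselves do not give the health status. Genes are given by Ensembl identifier in the deposited files, which do not pair them with names, so that the levels of FSHR and of markers of granulosa and other cell types were not checked here.

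MGCs line the inner face of the follicle wall. They carry receptors for follicle-stimulating hormone, convert androgens from the theca into oestradiol, and secrete inhibins. In cattle, follicles grow in waves in which 1 follicle becomes dominant and gains luteinizing hormone receptors on its granulosa cells, while its companions lose gonadotrophin support and undergo atresia. Atresia in cattle often begins with death of granulosa cells next to the antrum and can be under way before the wall or the cumulus looks abnormal.

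The 10 MGC libraries held 30589555 to 37626999 counts and 16211 to 17733 genes with a count. Totals averaged 35711000 ± 1366730 in healthy follicles (SD, n = 4) and 33141400 ± 2577160 in the others (SD, n = 6), a difference that did not pass an exact two-sided permutation test (p = 0.124, adjusted over both library measures 0.238). Genes detected averaged 16843 ± 338 and 17238 ± 561 (exact permutation p = 0.238, adjusted 0.238). With 210 ways of drawing 4 follicles from 10, the smallest p such a test can give is 0.00952. The library of L6 stood apart from the rest. It had the largest total and the fewest genes detected, and its median Spearman's rho over genes with the other 9 libraries was 0.865, against 0.918 to 0.949 for the other 9. Without L6, both library measures passed an unadjusted exact permutation p of 0.05 (p = 0.0317 each), with more counts and fewer genes in the healthy follicles. L6 is the follicle labelled with an MGC library name in another format than the other 9 follicles, and the results that rest on it are given with and without it.

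Similarity was measured by rho over the 14779 genes tested. Between pairs of the 4 healthy libraries it lay between 0.930 and 0.972. Between pairs of L1, L3, L4 and L7 it lay between 0.949 and 0.974, so that close similarity was not found only among the healthy follicles. Between a healthy and an other library, rho ran from 0.865 to 0.965 with a median of 0.919. L4 and L2 were among the libraries nearest to the healthy follicles, with a median rho to them of 0.951 and 0.948, above the 0.933 of the healthy L10. L7 had a median of 0.929, L3 of 0.912, L1 of 0.905 and L6 of 0.903. The range of similarity within the healthy set and that between the sets therefore overlapped, and there was no gap that separated the 6 other follicles from the 4 healthy ones.

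**Figure D1:**
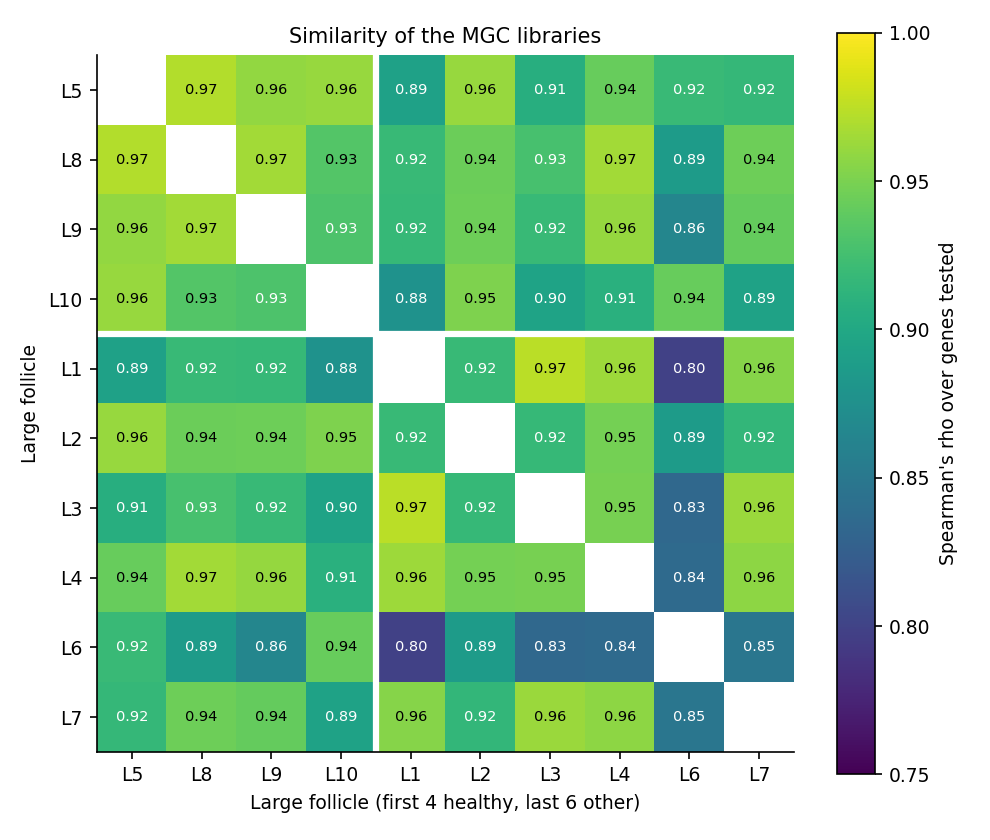
Spearman's rho over the 14779 genes tested between each pair of the 10 MGC libraries, with healthy follicles in the first 4 rows and columns and the others in the last 6. Pairs of healthy follicles lie between 0.930 and 0.972, and L6 has the lowest values of the map, down to 0.799 with L1.

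The 6 other follicles did not form a single group. On the first principal component of the 2000 most variable genes, which held 65.1% of their variance, L1, L3, L7 and L4 had scores of -63.6, -47.8, -39.4 and -37.5. L2 had 2.11, among the healthy L9 with 1.46 and L8 with 3.33. L5 and L10 followed at 29.4 and 54.0, and L6 had the highest score of all, 98.0. L6 thus lay beyond the healthy follicles on the side away from L1, L3, L4 and L7. Its rho was 0.942 with the healthy L10 and 0.919 with the healthy L5, but 0.799 with L1 and 0.835 with L3. The other follicles spanned the whole range of the healthy follicles, with values both below and above it, at 34.8% of genes. The healthy follicles spanned the others at 7.08%. The others are the larger set, and a larger set spans a smaller set more often also where the groups do not differ. The shares that group size alone would give were not computed, so no conclusion on grouping is drawn from these shares.

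The large MGC libraries were also compared with the earlier stages. The median rho of each large MGC library to the MGCs of the 8 retained medium follicles ran from 0.917 to 0.935 in the healthy follicles. It ran from 0.925 to 0.939 in L1, L2, L3, L4 and L7, and was 0.856 in L6. To the MGCs of the 9 retained small follicles the healthy libraries had 0.910 to 0.937. L1, L2, L3, L4 and L7 had 0.892 to 0.930 and L6 had 0.861. The 2 sets of follicles overlapped on both measures, and L6 was the least similar to either stage.

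The spread among follicles was larger in the others than in the healthy follicles when L6 was counted. The SD of log2(CPM + 1), where CPM is the count scaled to the total of its library, had a median over genes of 0.363 in the healthy follicles and 0.442 in the others, and was larger in the others at 65.5% of genes. Without L6 the median in the others was 0.365, close to that of the healthy follicles. The difference between the medians therefore rested on L6. The median of an SD taken over few follicles also depends on how many there are. The part of set size in these values was not computed, nor was the 65.5% without L6.

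No gene passed the test in MGCs between healthy and other large follicles. A differentially expressed gene (DEG) was defined by a fold change above 2 and a Benjamini-Hochberg adjusted p under 0.05, and edgeR's quasi-likelihood test gave 0 of 14779 (0%), with 0.193 as the smallest adjusted p. At an unadjusted p under 0.05 with the same fold limit, 852 genes (5.76%) remained, 173 higher in healthy follicles (1.17%) and 679 lower (4.59%). The unadjusted list was thus mostly of genes with a lower level in healthy follicles. These genes had low levels, with a median mean log2 CPM of 2.69 for the higher and 2.33 for the lower, against 4.10 over all genes tested. The median log2 fold change over all genes was -0.06.

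**Figure D2:**
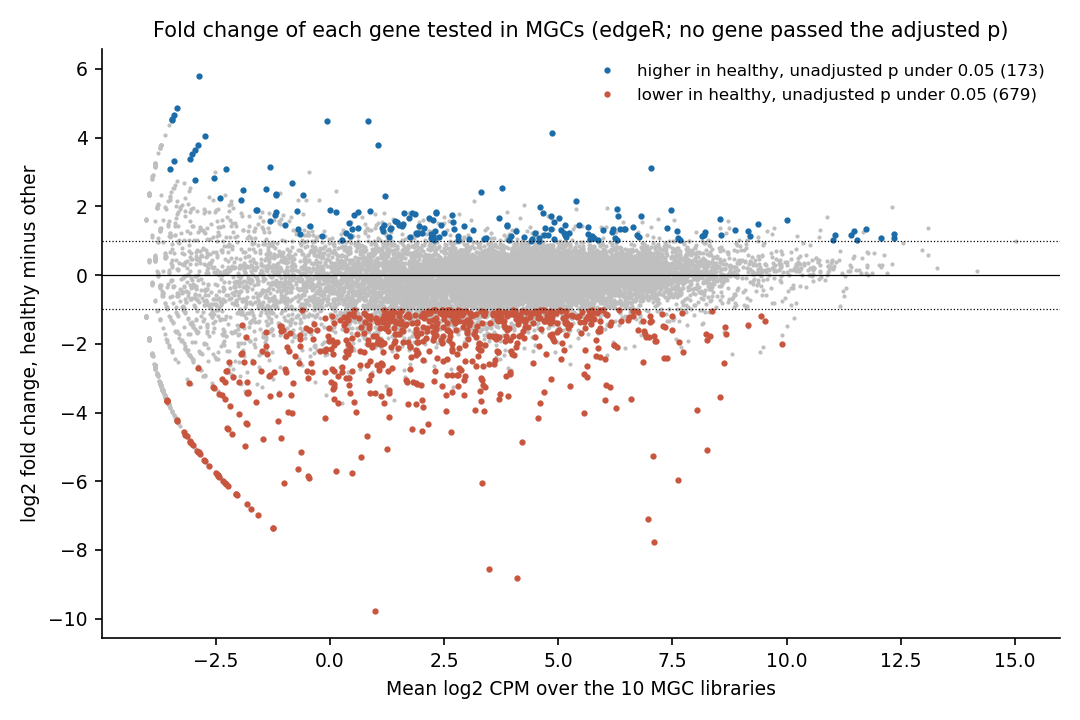
Log2 fold change of each of the 14779 genes in MGCs, healthy minus other, against its mean log2 CPM, with dotted lines at a fold change of 2. Coloured points are the 173 higher (blue) and 679 lower (red) genes with an unadjusted p under 0.05 from edgeR, none of which passed the adjusted p, and the lower ones outnumber the higher ones.

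The number of DEGs depended on the test and on L6. DESeq2, the tool of the study's methods, called 235 genes (1.59%), 34 higher (0.23%) and 201 lower (1.36%) in healthy follicles. With L6 left out, edgeR called 345 (2.34%), of which 43 were higher (0.291%) and 302 lower (2.05%), and DESeq2 called 1283 (8.69%), 274 higher (1.86%) and 1009 lower (6.84%). Of the 345 genes, L6 lay on the healthy side of the midpoint between the group means at 326 (94.5%), so that for most of them L6 had a level nearer to the healthy follicles than to the other 5. The same share over all genes tested is not given here. edgeR without a covariate called these genes only once L6 was left out. That choice favours genes at which L6 lay near the healthy follicles, so the 94.5% is a description and not a result about L6. Leaving out any other follicle gave 0 DEGs with edgeR, except that 1 gene was called without L10. The lists of DESeq2 and of edgeR without L6 shared 110 genes in the same direction, 46.8% of the former and 31.9% of the latter. In each list the genes lower in healthy follicles outnumbered the higher ones.

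**Figure D3:**
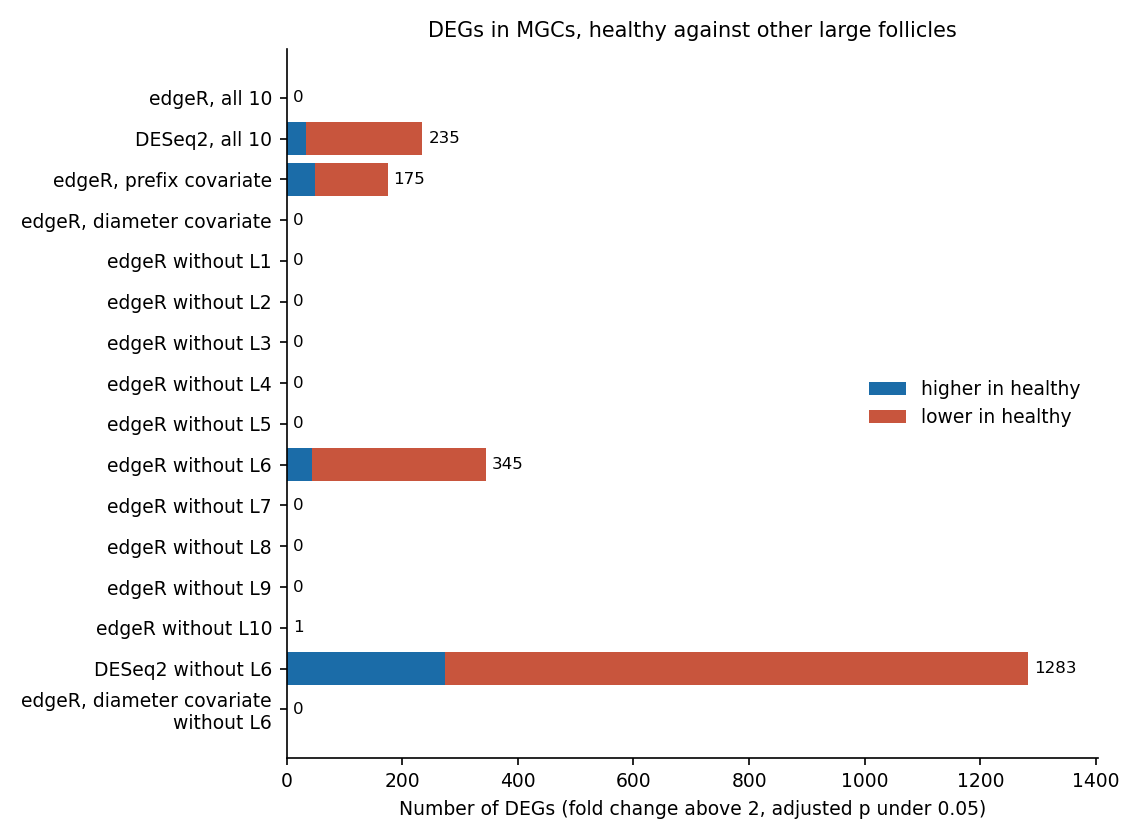
Number of DEGs in MGCs under each setting, with blue for genes higher and red for genes lower in healthy follicles. edgeR gave 0 with all 10 follicles and 345 without L6, and DESeq2 gave 235 and 1283.

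Healthy follicles were larger on average, a difference that did not pass an exact permutation p of 0.05. Healthy follicles measured 11.15 ± 0.645 mm (SD, n = 4) and the others 10.37 ± 0.674 mm (SD, n = 6), and the difference of 0.783 mm had an exact two-sided permutation p of 0.0667. The ranges overlapped, with the healthy L5 among the smaller follicles and L6 and L7 among the larger of the others. Without L5, L6 or L7 the exact permutation p was 0.0238, 0.0476 and 0.0476, with differences of 1.10, 0.95 and 0.95 mm. Leaving out any of the remaining follicles gave an exact permutation p from 0.0952 to 0.143. With diameter as a covariate, edgeR gave 0 DEGs in MGCs with L6 and 0 without it. The fold limit and an unadjusted p under 0.05 from edgeR left 656 of 14779 genes with L6 and 1340 of 14756 without it. Without diameter in the fit the same limits left 852 and 1851. The 345 calls obtained without L6 were not obtained once diameter was in the fit, and health status and diameter cannot be told apart for them. Without L6, adding diameter moved the log2 fold change of ENSBTAG00000003958, described further on, from 2.06 to 2.39, that of ENSBTAG00000012088 from -1.35 to -1.20 and that of ENSBTAG00000014465 from -4.23 to -4.32, with adjusted p from edgeR of 0.0806, 0.275 and 0.151 with diameter in the fit.

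The first 3 digits of the follicle identifiers gave pairs in which 1 healthy and 1 other follicle share a prefix, and what the prefix stands for is not given. L10 and L2 form one such pair, L9 and L1 the next and L8 and L3 the last. L5 and L6 are alone in their prefixes, and L4 and L7 share one without a healthy follicle. In each pair the healthy follicle was the larger, 11.6 against 10.0 mm, 11.5 against 9.6 mm and 11.3 against 10.0 mm, so that diameter and health status cannot be told apart within pairs. Counts on the log2(CPM + 1) scale were at least 2-fold higher in L10 than in L2 at 368 genes (2.49%) and at least 2-fold lower at 2179 (14.7%). They were higher in L9 than in L1 at 965 genes (6.53%) and lower at 2436 (16.5%). In the last pair the values were 1120 (7.58%) and 1682 (11.4%). The lower genes outnumbered the higher ones in each of the 3 pairs. These levels were scaled to library totals only, and the median difference over all genes was also below 0. It was -0.216 for L10 and L2, -0.222 for L9 and L1 and -0.0916 for L8 and L3. The part of this general shift in the excess of lower genes was not tested. In all 3 pairs together, 61 genes were higher (0.413%) and 448 lower (3.03%). With the prefix as a covariate, a fit in which L4, L5, L6 and L7 carry no information on the difference between the groups and which rests on the 3 pairs, edgeR called 175 genes (1.18%), 49 higher (0.332%) and 126 lower (0.853%) in healthy follicles. This list shared 103 genes in the same direction with that of edgeR without L6, 58.9% of the former and 29.9% of the latter. It shared 32 with DESeq2, 18.3% of its own genes and 13.6% of DESeq2's, and 27 genes were in all 3 lists.

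Every healthy library lay apart from every other library at a small share of genes, and mostly with lower levels in healthy follicles. All 4 healthy libraries lay above all 6 others at 68 genes (0.460%) and below them at 381 (2.58%). Were the libraries exchangeable, the 210 arrangements would give such separation, in either direction, at a proportion of 0.00952 of genes. The share of lower genes alone was above that proportion. The groups were picked from these same MGC libraries, so these shares are a description. Without L6, the counts were 181 higher (1.22%) and 1257 lower (8.51%). With fewer libraries such separation is more frequent also where the groups do not differ. How much of the rise without L6 comes from the smaller number of libraries was not computed.

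The genes with the smallest p in each direction and a mean log2 CPM of at least 3 are given with the value of every library. None passed the adjusted p with all 10 follicles, and they were picked for this difference, so their separation is a description. ENSBTAG00000003958 had 107.8 CPM in L5, 92.3 in L8, 71.2 in L9 and 29.2 in L10 among the healthy follicles. Among the others it had 23.4 CPM in L1, 21.7 in L2, 15.6 in L3, 20.6 in L4, 10.9 in L6 and 20.2 in L7. The groups did not overlap, but L10 lay nearer to the others than to the 3 other healthy follicles. The log2 fold change was 2.15 with a standard error of 0.29 and an adjusted p of 0.193 from edgeR. It was 2.06 without L6 (adjusted p = 0.0157) and 1.76 with the prefix as a covariate (adjusted p = 0.0684), and over all settings the adjusted p ran from 3.99e-08 with DESeq2 without L6 to 0.683 without L5. In MGCs of earlier stages the median was 22.1 CPM in the 9 small follicles and 14.1 in the 8 medium ones, with maxima of 38.9 and 39.3, so that L5, L8 and L9 lay above every retained small and medium follicle and L10 within their range.

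ENSBTAG00000020122 differed by less. It had 177.4 CPM in L5, 170.4 in L8, 197.2 in L9 and 153.4 in L10. In the other follicles it had 103.5 CPM in L1, 118.9 in L2, 112.4 in L3, 111.0 in L4, 100.8 in L6 and 120.8 in L7. Values within each group were close, with means of 174.6 ± 18.1 and 111.2 ± 8.01 CPM (SD, n = 4 and 6), and L10 was again the lowest of the healthy follicles. edgeR put the log2 fold change at 0.83 ± 0.16 (SE) with an adjusted p of 0.347. That is under the fold limit, so that the gene could not be called a DEG even where its adjusted p was low, as without L6 (0.0332).

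ENSBTAG00000012088 was lower in the healthy follicles. It had 24.9 CPM in L5, 27.3 in L8, 28.3 in L9 and 24.1 in L10, a narrow range. The others had 105.4 CPM in L1, 84.6 in L2, 74.1 in L3, 53.7 in L4, 113.5 in L6 and 71.0 in L7. All 6 lay well above the highest healthy follicle, L6 the highest among them. The log2 fold change was -1.53 (SE 0.27, adjusted p from edgeR 0.347), -1.35 without L6 (adjusted p = 0.0221) and -1.50 with the prefix as a covariate (adjusted p = 0.0382). Its adjusted p over all settings ran from 7.68e-06 to 0.683. The small follicles had a median of 68.2 CPM and a lowest value of 19.0, and the medium ones 46.4 and 17.9, so that the healthy large follicles lay within the range of both earlier stages.

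ENSBTAG00000014465 had the widest range. It had 3.42 CPM in L5, 2.46 in L8, 5.45 in L9 and 5.51 in L10. The others had 152.4 CPM in L1, 25.1 in L2, 156.7 in L3, 45.5 in L4, 10.9 in L6 and 106.8 in L7. L6 was the nearest to the healthy follicles and L2 the next. The log2 fold change was -4.01 (SE 0.74, adjusted p from edgeR 0.347), -4.23 without L6 (adjusted p = 0.0157) and -4.15 with the prefix as a covariate (adjusted p = 0.0489). Its adjusted p over all settings ran from 1.22e-12 to 0.683. The small and medium follicles ran from 5.67 to 283.5 CPM and from 2.48 to 277.3 CPM, so that the low values of the healthy follicles were also found in medium ones. In the 3 prefix pairs the healthy follicle minus the other gave -2.0, -4.57 and -5.51 on the log2(CPM + 1) scale.

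**Figure D4:**
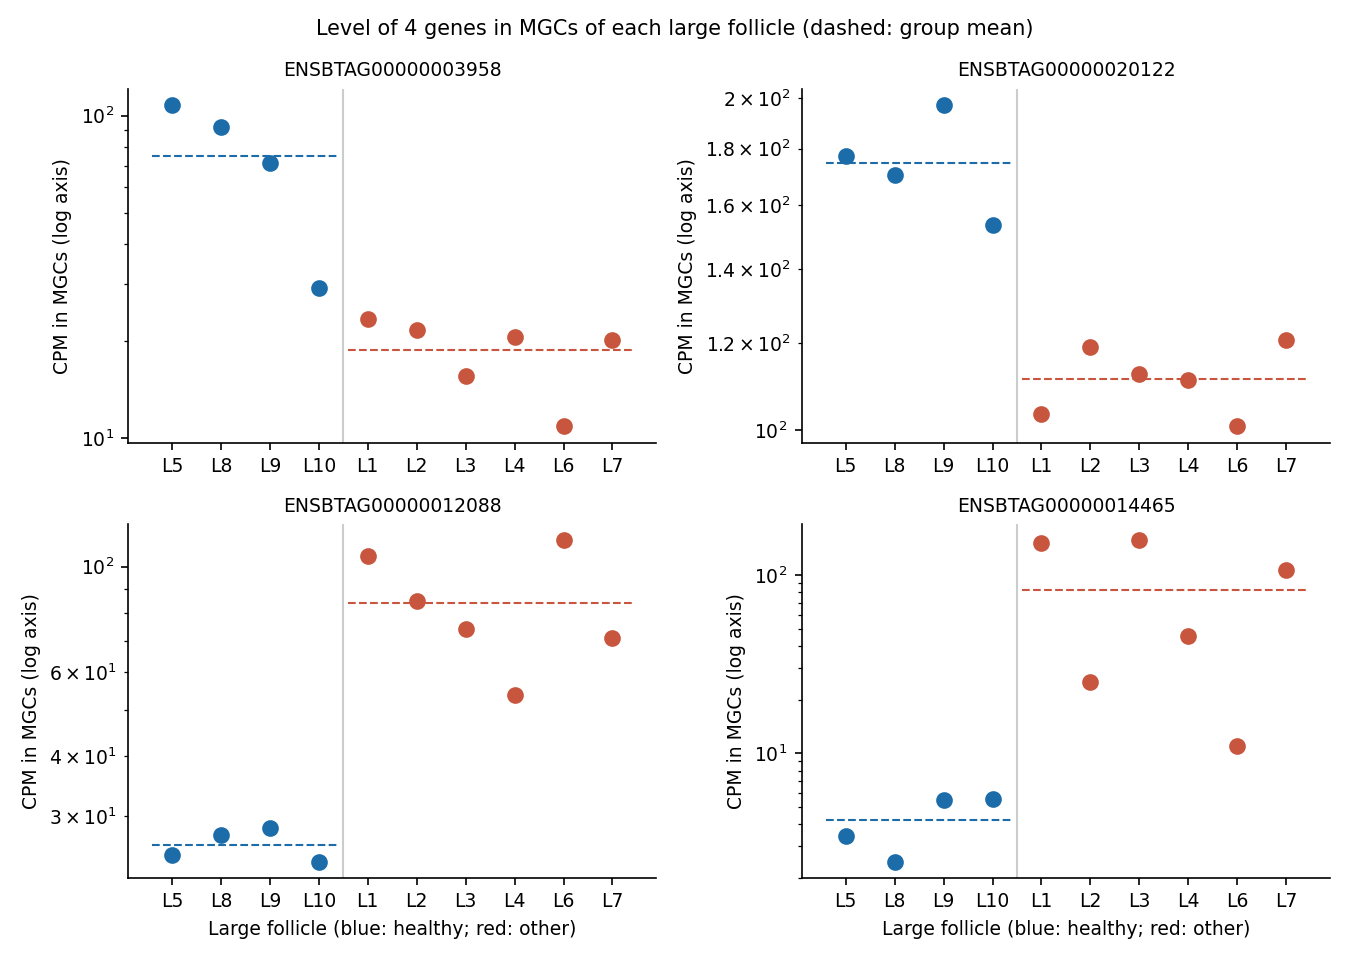
CPM of 4 genes in the MGCs of each large follicle on log axes, with healthy follicles in blue, the others in red and dashed lines at the group means. The groups do not overlap for any of the 4 genes, which were picked for this difference, and L10 is the healthy follicle nearest to the others for ENSBTAG00000003958 and ENSBTAG00000020122.

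Genes enriched in MGCs of earlier follicles had a median log2 fold change further below 0 than that over all genes, although none of them passed edgeR's adjusted p with all 10 follicles. Gene classes were made from the MGC, CC and oocyte libraries of the 17 retained small and medium follicles, which do not enter the comparison. MGC RNA was sequenced in bulk while that of CCs and oocytes was amplified. Cell type and library method therefore cannot be told apart in the membership of a class. A gene was put in the class of a cell type when its mean log2(CPM + 1) there was at least 2 above that of both other cell types, and in a somatic class when MGCs and CCs were both at least 2 above oocytes and less than 1 apart. The 1007 mural-enriched genes had a median log2 fold change of -0.46, against -0.06 over all genes, and 4 of them were higher and 93 lower at an unadjusted p under 0.05 with the fold limit. That is 0.397% and 9.24% of the class, beside 1.17% and 4.59% over all genes. Without L6 the median was -0.54, and 82 mural-enriched genes (8.14%) were lower DEGs and 1 a higher one, beside 2.05% and 0.291% over all genes. DESeq2 with all 10 follicles called 26 mural-enriched genes lower (2.58%) and 1 higher (0.0993%), beside 1.36% and 0.23% over all genes.

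The level of this class in each library did not separate the groups. The median log2(CPM + 1) over the 1007 genes was 4.75 in L5, 5.05 in L8, 5.02 in L9 and 4.31 in L10. It was 5.85 in L1, 5.18 in L2, 5.54 in L3, 5.67 in L4 and 5.63 in L7, but 4.16 in L6, the lowest of all. The means were 4.78 ± 0.345 in healthy follicles and 5.34 ± 0.620 in the others (SD, n = 4 and 6), a difference of -0.56 that became -0.79 without L6. Apart from L6, every other follicle lay above every healthy one. As a share of all counts the class made up 12.2% in L10, 13.7% in L5, 15.5% in L8 and 20.7% in L9, and 11.6% in L6 against 16.5 to 20.1% in the remaining others. By that measure the groups overlapped also without L6, since L9 had the highest share of the 10.

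The other classes had median log2 fold changes nearer to 0 with all 10 follicles. The 2301 oocyte-enriched genes, whose levels in MGCs are low, had a median log2 fold change of -0.17, with 28 higher and 139 lower at the unadjusted limit (1.22% and 6.04%). Their median log2(CPM + 1) was 0.99 to 1.46 in healthy follicles and 1.57 to 1.81 in the others apart from L6, which had 0.89. The difference between the group means of these levels was -0.27, and -0.41 without L6, where the median log2 fold change was -0.14. The 215 cumulus-enriched genes had a median log2 fold change of 0.08 and, on the other measure, a mean median level of 2.51 ± 0.260 in healthy follicles against 2.56 ± 0.312 in the others, so that the 2 measures differed in sign. Without L6 the median log2 fold change was 0.39. The difference in mean level was -0.05 and ran from -0.17 to 0.05 over the follicles left out, with the sign turned without L2, L6, L8 or L9. In these genes 6 were higher and 15 lower at the unadjusted limit, 2.79% and 6.98% of the class beside 1.17% and 4.59% over all genes. The share of counts in cumulus-enriched genes ran from 1.76% in L8 to 5.16% in L10 among the healthy follicles. It was 0.68 to 0.86% in L1, L3, L4 and L7, but 2.81% in L2 and 5.56% in L6. Apart from L2 and L6, the others thus had a lower share than every healthy follicle. The 1048 somatic genes had a median log2 fold change of 0.07, and 0.14 without L6, with 26 higher (2.48%) and 29 lower (2.77%). Their median level was 5.11 to 5.36 in healthy follicles and 5.26 to 5.50 in the others, ranges that overlapped. The difference of the group means of that level was -0.11, and -0.10 without L6, of the opposite sign to the median log2 fold change. The 2 measures are scaled differently, the fold change by edgeR's own library scaling and the level by library totals alone. The part of scaling in the differing signs of the somatic and cumulus-enriched classes was not tested. In bulk libraries a larger share of a cell type and more RNA per cell cannot be told apart, and the part of L6's separate position, or of cells peeled off with the MGCs, in these differences was not tested.

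**Figure D5:**
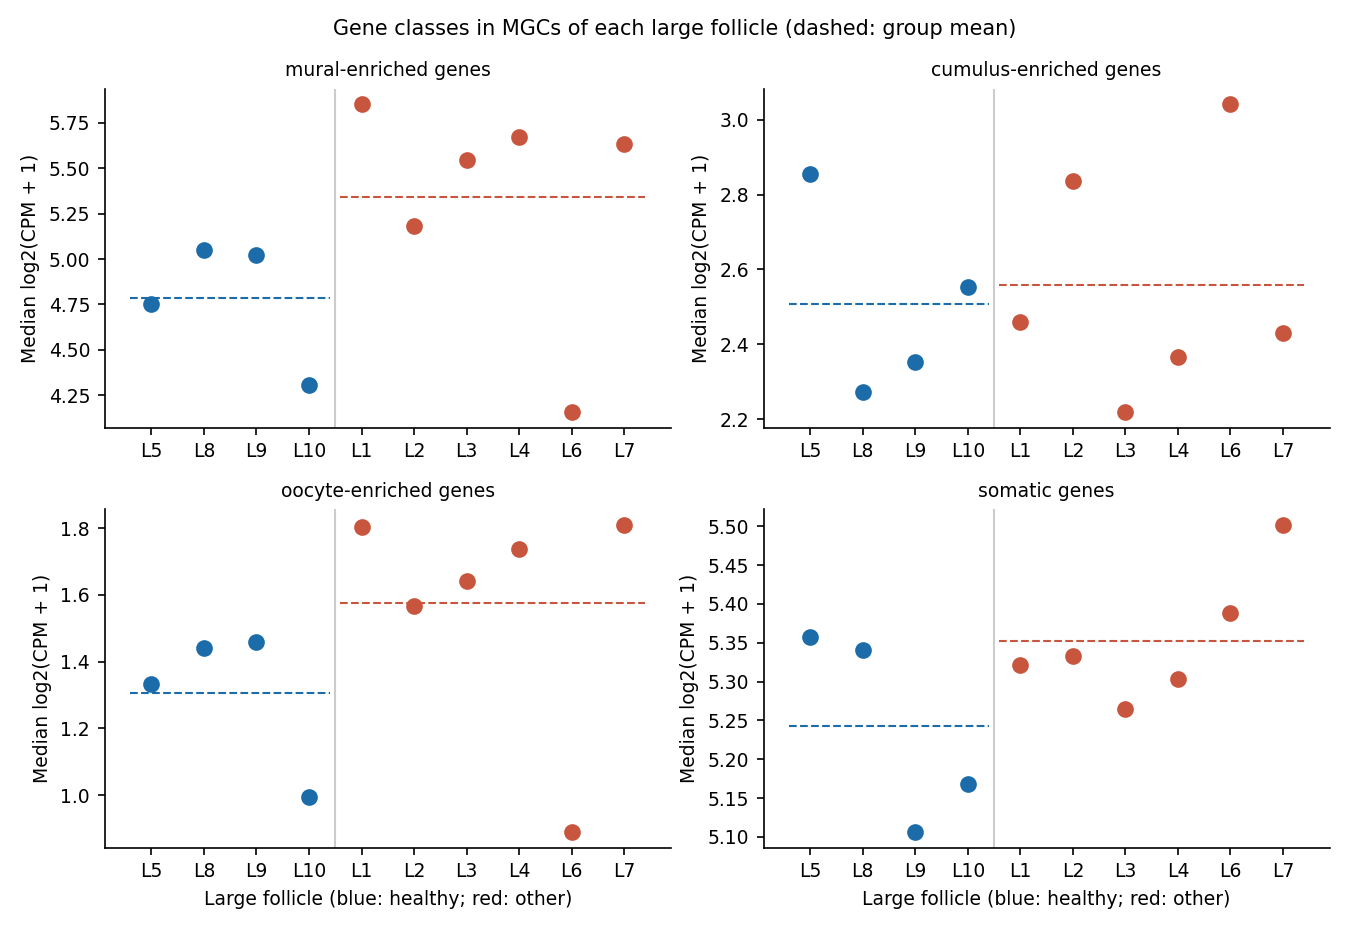
Median log2(CPM + 1) in MGCs of each large follicle over 4 gene classes made from small and medium follicles, with healthy follicles in blue, the others in red and dashed lines at the group means. For mural-enriched and oocyte-enriched genes, L6 is below every healthy follicle and the remaining 5 others are above every healthy follicle.

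The CCs and oocytes of the same follicles, which did not enter the choice of the healthy set, gave no DEG by edgeR. In CCs 0 of 15009 genes (0%) passed. The fold limit and an unadjusted p under 0.05 left 530 (3.53%), 175 higher (1.17%) and 355 lower (2.37%) in healthy follicles, and DESeq2 called 18 (0.120%), 3 higher (0.02%) and 15 lower (0.0999%). In oocytes 0 of 14692 (0%) passed, with 320 at the unadjusted limit (2.18%), 165 higher (1.12%) and 155 lower (1.05%), and DESeq2 called 4 (0.0272%), all lower in healthy follicles. Of the 173 genes higher in healthy MGCs at the unadjusted limit, 6 were also higher in CCs and 7 lower. The 6 were 3.47% of the MGC list and 3.43% of the CC list, beside 1.17% of all genes tested in CCs. Of the 679 lower in healthy MGCs, 27 were also lower in CCs (3.98% and 7.61%, beside 2.37% of all genes tested) and 11 higher. In oocytes 4 genes were shared in the higher direction, 2.31% of the MGC list beside 1.12% of all genes tested in oocytes. In the lower direction 8 were shared, 1.18% beside 1.05%. Those called in the opposite direction in oocytes numbered 1 and 13. Opposite calls outnumbered shared ones for the higher list in CCs and the lower list in oocytes, and no conclusion is drawn from these overlaps. The excess of lower over higher genes seen in MGCs was thus also present in CCs at the unadjusted limit but not in oocytes, and the difference between the cell types was not tested.

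The 4 named genes did not separate the groups in the other cells. ENSBTAG00000003958 had 38.2 to 161.6 CPM in CCs of healthy follicles and 26.3 to 55.0 in those of the others, where edgeR gave 1.2 ± 0.40 (SE) on the log2 scale and an adjusted p of 0.971, and the healthy L5, L8 and L9 were above all 6 others. In oocytes it was at most 1.91 CPM in any follicle. ENSBTAG00000020122 had 43.0 to 82.0 CPM in CCs of healthy and 73.3 to 91.4 in those of other follicles, the opposite order of means to MGCs. ENSBTAG00000012088 was at 1.10 to 20.9 CPM over the 10 CC pools and at most 3.17 CPM in oocytes. ENSBTAG00000014465 ran from 2.22 to 507.1 CPM over the CC pools and from 0.53 to 53.3 CPM in oocytes, with the highest CC value in L6.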

How the data were processed

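The deposited values are raw counts per gene, which the authors obtained with featureCounts over exons after alignment to ARS-UCD1.2. The labels' processing notes name HISAT2 2.2.1 and the study's methods STAR, and which made the table is not settled. Between 59.5% and 65.9% of the counts from 1 to 20 were even in the 10 libraries, so mates of a pair may have been counted separately. Counting errors would then be understated.

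The follicles, their groups and the gene lists were chosen with earlier results of these data known. Health status came from the study, not from the labels. The genes tested had more than 1 CPM in 15 or more of the retained libraries of some cell type, and they were tested with edgeR 4.0.16 (TMM, glmQLFit and glmQLFTest) in R 4.3.3, on the 10 libraries of each cell type alone. DESeq2 1.42.0 was the alternative. CPM was computed from the deposited counts, with a pseudocount of 1 for log values. Both tools were also run on simulated counts. The outcome is not given here and is not used to choose between their numbers of DEGs. MGC RNA was extracted in bulk, whereas CCs and oocytes were amplified by SMART-seq2, so their levels are compared with MGCs only to form gene classes. In these means the sparse CC library of a small follicle, with 1066 genes detected, was left out.

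Gene lists, cell type markers, the mitochondrial share and promoters were planned but not run, because 0 of the 27270 identifiers could be paired with a symbol. At most 2 identifiers in each direction are named for that reason, those with the smallest p among genes whose mean log2 CPM was 3 or more. Other alternatives were DESeq2's size factors, edgeR's filterByExpr, no filter, halved counts, the identifier prefix or the diameter as a covariate, other pseudocounts (0.1 and 5), and leaving out each follicle in turn. The combinations with L6 left out, and the gene classes with a limit of 3, were chosen after seeing the data.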

Additional observations from a re-analysis of the deposited data

Results flagged for a closer look

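Of 62 groups of values checked for a sample far from the others by Dixon's test at the 95% level, 5 had one, and chance flags about 1 in 20 groups. In the MGCs of the other large follicles, L6 had the lowest median rho to the remaining libraries, 0.865. L6 was also the library with the highest share of genes at which it was the lowest of the 10, 24.8%, and the lowest median log2(CPM + 1) of oocyte-enriched genes, 0.888. Its CC pool had a median rho of 0.904 and its oocyte of 0.935 to the other 9 of the same cell type, values that were not apart from the rest.

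ENSBTAG00000014465 had 507.1 CPM in the CCs of L6, the highest of the other follicles, and 53.3 CPM in the oocyte of L4, again the highest of its group.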

How the results depend on the processing

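In MGCs, edgeR's 0 DEGs became 852 at the unadjusted p, 235 with DESeq2, 175 with the identifier prefix as a covariate, 373 with filterByExpr without L6 and 1283 with DESeq2 without L6. Leaving out 1 follicle gave 0 to 345 DEGs, 345 without L6. The count stayed at 0 with DESeq2's size factors, filterByExpr, no filter, halved counts, no fold limit, and diameter as a covariate. In CCs the 0 DEGs became 530 at the unadjusted p and 18 with DESeq2, with 0 to 1 over the follicles left out, and in oocytes 320 and 4, with 0 whichever follicle was left out. For counts that moved, the cause was not tested beyond the samples or the test used.

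Over the follicles left out, the difference in diameter ran from 0.63 to 1.10 mm (exact permutation p from 0.0238 to 0.143), that in total counts from 2014420 to 3466660 (exact permutation p from 0.0317 to 0.262), and that in genes detected from -600.1 to -263.2 (exact permutation p from 0.0317 to 0.476). The median SD in the others exceeded that in the healthy follicles by 0.00154 to 0.149. The sign of the difference in cumulus-enriched level turned without L2, L6, L8 or L9. No paired analysis by replicate number was possible because the numbers only name the follicles, and the pairing used was that of the identifier prefix. With 4 and 6 follicles and a common biological coefficient of variation of 0.55 in MGCs, small differences were not detectable.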
